A study of Mus musculus with 18 samples.

Results

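The genes that encode the receptors for neurotransmitters were examined for the histone mark H3K27me3 in the headfold of the mouse embryo. Genes were taken by name from the RefSeq gene table, namely the protein-coding genes of 13 receptor classes. They are the GABA-A, AMPA, delta, kainate, NMDA, metabotropic glutamate, nicotinic, muscarinic, glycine, alpha adrenergic, beta adrenergic, serotonin and dopamine receptors. The names matched 100 genes. Grid2ip, a scaffold protein, and Grina, a protein named after but not part of the glutamate receptors, were dropped, which left 98 receptor genes among 21883 protein-coding genes.

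The mark was profiled by CUT&Tag, in which an antibody directs a transposase to the mark and the released DNA is sequenced, in single headfolds at embryonic day 8.5. All embryos were Gulo-/- and so could not make vitamin C. The 4 groups were B6 embryos without vitamin C, B6 embryos with vitamin C, 129 embryos without vitamin C and 129 embryos with vitamin C, the supplement being 3.3 g/l in the drinking water. Each group had 3 peak lists, 2 from female and 1 from male embryos, from 3 pregnancies except in B6 with vitamin C, where all embryos had the code of 1 pregnancy. The 12 lists held between 748 and 4726 peaks (median 2465) and covered between 3.58 and 31.7 Mb of mm10. They marked between 651 and 3752 protein-coding genes, where marked means that a peak overlapped the gene span, extended by 1 kb at each side, by 1 bp or more. In 2 lists the median peak was short, 1.32 kb in B6 without vitamin C replicate 1 and 1.41 kb in B6 with vitamin C replicate 2. The lists give no sequencing depth, which is therefore unknown. The posterior genes Hoxa9, Hoxb9, Hoxc9 and Hoxd10 were marked in 12 of 12 libraries, while of the anterior neural plate genes Otx2 was marked in 3, Sox2 in 2 and Hesx1 in 0, and Six3 in 11. The mark gives no expression level, so the cell types in the tissue were not read from it.

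Neurotransmitter receptors are of 2 kinds. Ionotropic receptors are ion channels built from several subunits that open when the transmitter binds, and G protein coupled receptors are single proteins that act through second messengers. They serve differentiated neurons and, for several of them, muscle, heart and vessels, and the headfold of this stage holds neural plate whose cells are still progenitors. H3K27me3 is laid down by Polycomb repressive complex 2 over genes that are silent but can be switched on later in development, often at CpG-rich starts.

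Over the receptor genes the mark was frequent. Of the 98 genes, 68 were marked in at least 1 library, or 69.4%, beside 20.2% of all protein-coding genes. Those marked in at least 10 of 12 libraries numbered 21, or 21.4%, beside 5.93% of all genes, and 8 genes (8.16%, beside 2.18% of all) were marked in every library. The median receptor gene was marked in 4 libraries, against 0 for the median protein-coding gene. In single libraries between 10 and 64 receptor genes were marked, and they made up between 1.38% and 2.00% of the marked genes of a library, which was 3.08 to 4.47 times their share of all genes. The remaining 30 receptor genes had no peak in any library. These counts describe a list that was chosen by name and were not tested. They changed with the number of peaks taken from a list. With each list reduced to its 748 peaks of largest total signal, 23 receptor genes were marked at least once, beside 7.28% of all genes, and 8 in at least 10 libraries, beside 2.15%. These 8 were Grin1 and Adra1d in all 12 libraries, Grin2d, Grid1, Adra2c and Adrb1 in 11, and Grin2c and Drd4 in 10.

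**Figure D1:**
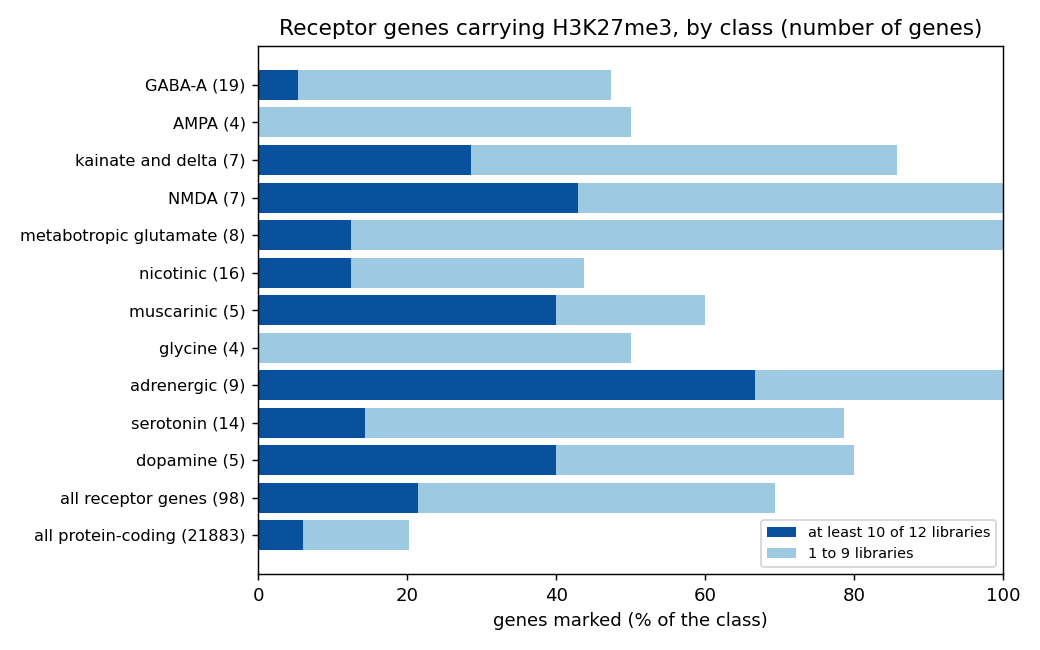
Share of the genes of each receptor class (x axis, percent of the class; number of genes in brackets) marked by H3K27me3 in at least 10 of 12 libraries (dark) or in 1 to 9 libraries (light). Delta receptors are counted with kainate receptors and beta with alpha adrenergic receptors. All NMDA receptor genes were marked at least once, while 10 of 19 GABA-A and 9 of 16 nicotinic receptor genes were never marked.

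The classes differed in how many genes carried the mark. Of the 39 genes for G protein coupled receptors, 35 were marked at least once and 13 in at least 10 libraries. Of the 59 genes for ion channel subunits, 33 were marked at least once and 8 in at least 10 libraries, so that 26 of the 30 genes without a peak encode channel subunits. Within the glutamate channels, all 7 NMDA subunit genes were marked at least once, as were 4 of 5 kainate and 2 of 4 AMPA subunit genes.

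Starts of some marked and some unmarked receptor genes are shown as RefSeq gives them for GRCm38.p6. Each runs from 250 bases before the start to 50 after it, 5′ to 3′ along the gene, with each CG dinucleotide in capitals. Grin1 on the minus strand of chr2:25319138-25319437, Drd4 on the plus strand of chr7:141291768-141292067 and Adra2b on the plus strand of chr2:127362929-127363228 are shown because these genes were marked at the start in all 12 libraries.
Grin1: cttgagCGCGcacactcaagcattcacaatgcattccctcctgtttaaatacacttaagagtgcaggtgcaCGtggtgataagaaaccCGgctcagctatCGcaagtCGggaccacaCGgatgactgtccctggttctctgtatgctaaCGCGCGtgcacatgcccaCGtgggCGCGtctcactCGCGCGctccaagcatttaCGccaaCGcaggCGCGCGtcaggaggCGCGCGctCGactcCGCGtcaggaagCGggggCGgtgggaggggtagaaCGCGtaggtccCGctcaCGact
Drd4: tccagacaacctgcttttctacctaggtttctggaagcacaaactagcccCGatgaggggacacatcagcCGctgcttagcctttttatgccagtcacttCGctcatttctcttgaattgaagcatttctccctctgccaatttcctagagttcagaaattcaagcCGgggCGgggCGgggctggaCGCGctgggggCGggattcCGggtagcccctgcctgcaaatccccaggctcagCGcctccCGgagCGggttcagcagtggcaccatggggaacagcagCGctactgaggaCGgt
Adra2b: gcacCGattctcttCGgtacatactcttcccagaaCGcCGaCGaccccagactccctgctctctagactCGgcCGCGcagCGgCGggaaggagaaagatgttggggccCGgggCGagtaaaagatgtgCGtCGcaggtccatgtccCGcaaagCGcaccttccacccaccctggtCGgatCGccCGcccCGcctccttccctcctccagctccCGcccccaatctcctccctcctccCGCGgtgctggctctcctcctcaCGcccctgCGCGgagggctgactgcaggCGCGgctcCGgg
The starts of Gabra3 on the minus strand of chrX:72656870-72657169, Gabra6 on the minus strand of chr11:42321023-42321322, Gabre on the minus strand of chrX:72274672-72274971 and Gabrg1 on the minus strand of chr5:70842568-70842867 belong to GABA-A subunit genes that were marked in no library. They were taken as the first in class order with a promoter sequence, so they do not stand for all unmarked receptor genes.
Gabra3: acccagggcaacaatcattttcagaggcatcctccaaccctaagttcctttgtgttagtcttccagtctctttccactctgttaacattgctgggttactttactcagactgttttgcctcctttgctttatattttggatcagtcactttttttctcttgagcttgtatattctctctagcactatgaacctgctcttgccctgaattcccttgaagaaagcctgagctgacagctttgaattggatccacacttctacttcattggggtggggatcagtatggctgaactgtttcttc
Gabra6: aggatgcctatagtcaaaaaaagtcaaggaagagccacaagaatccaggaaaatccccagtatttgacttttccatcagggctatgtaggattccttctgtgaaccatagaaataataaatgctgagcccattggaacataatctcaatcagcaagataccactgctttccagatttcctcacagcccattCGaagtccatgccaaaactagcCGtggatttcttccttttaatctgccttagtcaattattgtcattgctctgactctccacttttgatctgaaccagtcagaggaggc
Gabre: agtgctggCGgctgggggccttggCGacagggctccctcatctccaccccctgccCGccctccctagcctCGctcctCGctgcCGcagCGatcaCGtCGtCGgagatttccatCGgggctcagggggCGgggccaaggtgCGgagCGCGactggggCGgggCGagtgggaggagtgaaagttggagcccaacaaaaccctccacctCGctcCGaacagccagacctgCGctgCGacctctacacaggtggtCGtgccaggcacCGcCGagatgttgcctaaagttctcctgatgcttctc
Gabrg1: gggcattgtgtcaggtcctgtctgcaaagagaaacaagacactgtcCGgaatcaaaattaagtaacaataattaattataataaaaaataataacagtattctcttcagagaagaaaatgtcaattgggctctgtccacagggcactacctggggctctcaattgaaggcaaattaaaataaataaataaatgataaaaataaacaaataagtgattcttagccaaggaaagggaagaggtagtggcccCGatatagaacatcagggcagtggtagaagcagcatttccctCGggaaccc
The windows of Grin1, Drd4 and Adra2b hold 33, 15 and 29 CG dinucleotides. Gabra3, Gabra6 and Gabrg1 hold 0, 2 and 3, and Gabre, with 24, is as rich as the marked genes.

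A promoter window of this kind was at hand for 70 of the 98 genes. Its CG count had a median of 18.5 in the 16 receptor genes marked in at least 10 libraries, of 14 in the 32 genes marked in 1 to 9 libraries and of 4 in the 22 genes marked in none. At least 10 CG were found in 12 of 16, 25 of 32 and 5 of 22 of these windows. All 70 receptor genes together had a median of 12, near the 13 of all 17491 protein-coding genes with a window. Over all protein-coding genes the median was 20 in the 547 windows that lay in a peak in at least 10 libraries and 11 in the 15005 windows that lay in none. The order was not strict. Grm6, for the glutamate receptor of retinal ON bipolar cells, had 4 CG and Chrna5, for the nicotinic alpha 5 subunit, had 5, although both were marked in 10 libraries. Conversely Chrna7, for the nicotinic alpha 7 subunit, had 35 CG and Grik2, for the kainate subunit GluK2, had 26, and neither had a peak. Both parts of the RE1 element bound by the neuronal gene repressor REST were searched on both strands. TTCAGCACC occurred in 0.412% of all windows and, among receptor genes, in that of Grm2. GGACAGCGC occurred in 0.56% of all windows and in those of Gria2 and Htr5a. A match of letters is not a binding site.

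**Figure D2:**
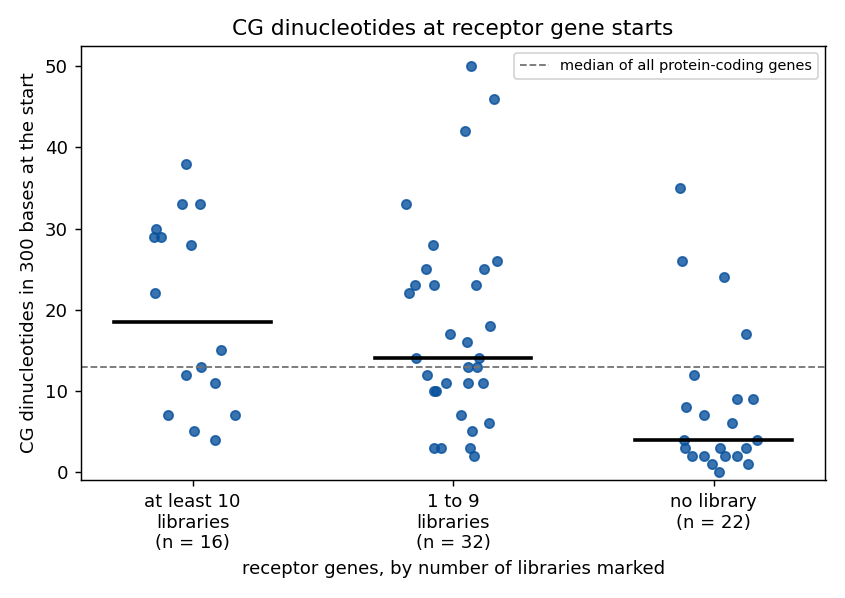
CG dinucleotides in the 300 bases at the gene start (y axis) for the 70 receptor genes with a promoter window, by the number of libraries in which the gene was marked. Bars are medians (18.5, 14 and 4), the dashed line is the median of all protein-coding genes (13), and points are spread sideways only for legibility.

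The mark lay at the start of the genes. Within 1 kb of a start listed in the promoter table, 14 of the 70 receptor genes were marked in at least 10 libraries, or 20%, beside 4.05% of the 17491 genes with such a start, and 45 were marked at least once, or 64.3% beside 15.1%. Within 1 kb of either end of the gene span, which needs no strand, 17 of the 98 were marked in at least 10 libraries, or 17.3% beside 4.73% of all genes. Of the 322 instances in which a receptor gene with a known start was marked in a library, 293 (91.0%) included the start, against 80.4% over all protein-coding genes. Receptor genes are long, with a median span of 41.0 kb against 17.2 kb for all genes, yet of the 90 instances in genes of at least 100 kb, 84 (93.3%) included the start, against 74.1% in all genes of that length. Averaged over the 16 genes marked in at least 10 libraries, the share of bases in peaks reached 82.5% in the bin between 0.5 and 1 kb downstream of the start and was 11.1% at 4.75 kb upstream and 25.9% at 4.75 kb downstream. The genes marked in 1 to 9 libraries reached 31.4%.

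**Figure D3:**
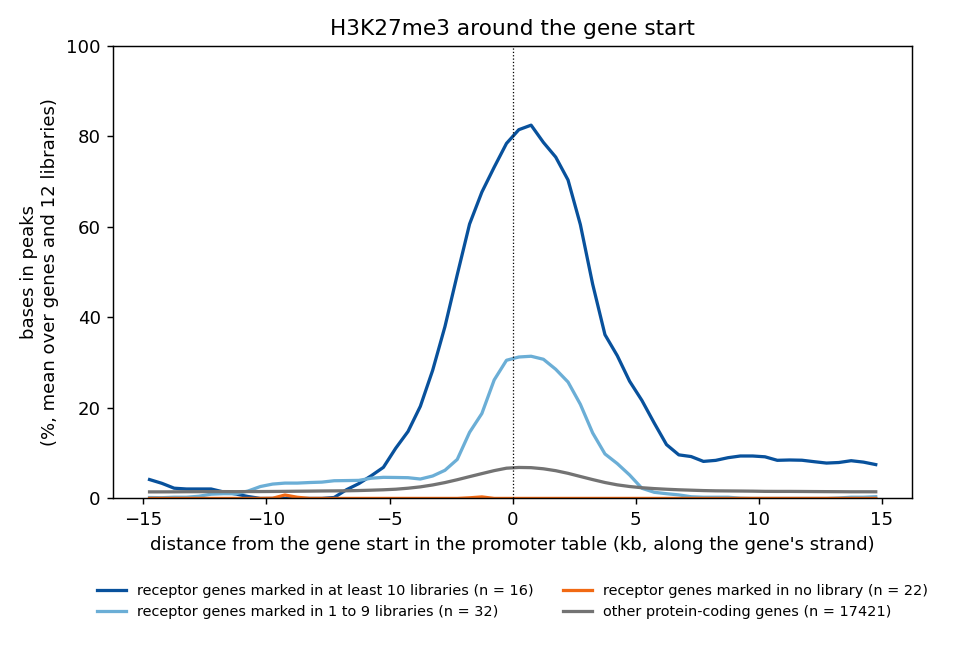
Share of bases in H3K27me3 peaks (y axis, percent, mean over genes and 12 libraries) in bins of 0.5 kb around the gene start (x axis, kb, positive downstream) for receptor genes by number of libraries marked and for all other protein-coding genes. The genes marked in at least 10 libraries peak at 82.5%, those marked in 1 to 9 libraries at 31.4% and the other genes at 6.84%.

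Among the NMDA receptor genes, Grin1, Grin2c and Grin2d were marked in every library. Grin1 encodes the subunit that every NMDA receptor contains. Peaks covered 6.56, 7.68 and 19.4 kb of its window in B6 headfolds without vitamin C, 18.2, 14.2 and 26.2 kb in B6 headfolds with vitamin C, 21.5, 9.68 and 23.6 kb in 129 headfolds without vitamin C, and 28.2, 26.4 and 22.9 kb in 129 headfolds with vitamin C. All 12 libraries had a block over the start, which merged to 23.6 kb (chr2:25301361-25324975, mm10), and all had a second block at the other end of the gene (chr2:25285191-25299540), which lay on Lrrc26 in 12 libraries, on Tmem210 in 11 and on Anapc2 in 1. The shortest cover came from the B6 libraries 1 and 2 without vitamin C and from 129 library 2 without vitamin C.

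Grin2c, for the subunit best known from cerebellar granule cells, was covered over 4.47, 3.34 and 16.0 kb in B6 headfolds without vitamin C, over 8.03, 5.68 and 20.1 kb in B6 headfolds with vitamin C, over 20.1, 3.67 and 20.1 kb in 129 headfolds without vitamin C, and over 20.1 kb in all 3 of the 129 headfolds with vitamin C. The 20.1 kb is the whole of its window, and the merged block (chr11:115244725-115269958) reached Tmem104 in 9 libraries and Fdxr in 8. Grin2d, for a subunit of embryonic and young neurons, had 5.25, 3.80 and 10.5 kb in B6 headfolds without vitamin C, 11.7, 8.49 and 15.4 kb in B6 headfolds with vitamin C, 13.7, 6.75 and 14.5 kb in 129 headfolds without vitamin C, and 14.5, 13.5 and 14.3 kb in 129 headfolds with vitamin C. Its peaks formed 2 main blocks, 1 at each end of the gene. Within their own lists the strongest peaks over Grin1, Grin2c and Grin2d ranked high, at median percentiles of 85.6, 78.1 and 81.9. The ranking was by the maximum signal the authors gave each peak.

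The other NMDA genes were marked less widely. Grin2a and Grin3b were marked in 9 libraries, Grin3a in 8 and Grin2b in 3. Grin2a and Grin2b encode the main partners of Grin1 in the adult and the young forebrain. Where they had peaks these covered a median of 6.63 kb of the 428 kb of Grin2a and 4.08 kb of the 460 kb of Grin2b.

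Grid1, for the delta receptor GluD1 that binds cerebellins across the synapse, was the other glutamate channel gene marked in every library. Its gene spans 763 kb, of which peaks covered a median of 5.61 kb, or 0.733% of the window, with 1.99 kb in the lowest and 6.26 kb in the highest library, in 1 block across the boundary of the gene span with the lower coordinate (chr14:34813895-34825260). Among the kainate genes Grik1 was marked in 10 libraries over a median of 3.96 kb, Grik3 in 9, Grik4 in 3 and Grik2 in none. Grik5 was counted in 8, but its block lay at the far end of the gene and touched its start in 0 libraries. Of the AMPA genes, which carry the fast excitatory current, Gria2 was marked in 8 libraries, Gria3 in 1 (B6 with vitamin C replicate 2, over 0.823 kb) and Gria1 and Gria4 in none.

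The metabotropic glutamate receptors tune transmission through second messengers. Grm6 was marked in 10 libraries, over a median of 4.41 kb, and Grm4 and Grm8, both for presynaptic inhibitory receptors, in 9 each. Grm7 was marked in 8, Grm2 in 6, Grm5 in 5 and Grm3 in 1. The peaks of Grm4 were the widest of the class, with a median of 7.82 kb and up to 14.4 kb in 129 with vitamin C replicate 2.

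The adrenergic receptors, which respond to noradrenaline and adrenaline, made up the most regularly marked class. Of the 6 alpha genes, Adra1d, Adra2b and Adra2c were marked in 12 libraries, Adra1a in 11, Adra2a in 9 and Adra1b in 5. Of the beta genes, Adrb1 was marked in 11 and Adrb3, for the receptor of fat cells, in 10 over a median of 6.37 kb. Adra2c, for a presynaptic autoreceptor, spans 3.20 kb, and the mark covered 1.86, 2.85 and 5.20 kb of its window in B6 headfolds without vitamin C, 5.20, 3.29 and 5.20 kb in B6 headfolds with vitamin C, and 5.20 kb, the whole window, in all 6 headfolds of 129. Adra2b was covered over 2.85, 2.86 and 3.38 kb in B6 headfolds without vitamin C, over 4.03, 2.43 and 5.95 kb in B6 headfolds with vitamin C, over 5.70, 3.43 and 6.04 kb in 129 headfolds without vitamin C, and over 6.04, 5.33 and 5.10 kb in 129 headfolds with vitamin C. For Adra2b the 3 values of B6 without vitamin C lie below every value of 129.

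Adra1d, for an alpha 1 receptor of vessels and brain, had the widest cover of the adrenergic genes. It was covered over 4.32, 3.55 and 11.0 kb in B6 headfolds without vitamin C, 9.24, 6.37 and 14.3 kb in B6 headfolds with vitamin C, 16.9, 3.71 and 12.6 kb in 129 headfolds without vitamin C, and 19.1, 11.9 and 10.1 kb in 129 headfolds with vitamin C. Adrb1, for the main adrenergic receptor of the heart, was covered over 3.15, 0 and 4.59 kb in B6 headfolds without vitamin C, 4.02, 3.85 and 5.03 kb in B6 headfolds with vitamin C, 5.03, 3.82 and 5.03 kb in 129 headfolds without vitamin C, and 5.03 kb, its whole window, in all 3 of the 129 headfolds with vitamin C. The libraries of the 2 diets overlapped for both genes.

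Of the dopamine receptor genes, Drd4 was marked in 12 libraries, Drd5 in 10, Drd2 in 5, Drd1 in 2 and Drd3 in none. Drd4 and Drd2 encode receptors that lower cyclic AMP, and Drd1 and Drd5 receptors that raise it. Peaks over Drd4 covered 2.60, 6.06 and 5.75 kb in B6 headfolds without vitamin C, 5.81, 3.55 and 5.80 kb in B6 headfolds with vitamin C, 6.49, 4.74 and 6.49 kb in 129 headfolds without vitamin C, and 6.49 kb, the whole window, in all 3 of the 129 headfolds with vitamin C. By maximum signal the strongest of them ranked at a median percentile of 88.6 within their lists. This was the highest value among the 21 receptor genes marked in at least 10 libraries. B6 without vitamin C replicate 2, the shortest list, still covered 6.06 kb of Drd4.

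Among 14 serotonin receptor genes, Htr6 was marked in 11 libraries and Htr1a, for the inhibitory autoreceptor of serotonin neurons, in 10. Htr1d followed with 7, Htr2c and Htr5b with 6, Htr7 with 5 and Htr4 with 3. Htr1b, Htr1f, Htr2a and Htr5a were marked in 1 library each. Htr3a and Htr3b, which encode the serotonin-gated channel, had no peak, and nor did Htr2b. Htr1a was covered over 1.50, 0 and 3.69 kb in B6 headfolds without vitamin C, 4.33, 0 and 4.49 kb in B6 headfolds with vitamin C, 6.33, 3.21 and 4.38 kb in 129 headfolds without vitamin C, and 5.29, 4.86 and 5.58 kb in 129 headfolds with vitamin C. Both libraries at 0 were of B6.

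The acetylcholine receptors were divided. Of the 16 nicotinic genes 9 had no peak, among them Chrna7 and Chrnb2, for major subunits of the brain. Chrna4, the usual brain partner of Chrnb2, was marked in 10 libraries, at a listed start in 9 of them, over a median of 6.10 kb. Chrna5, Chrna3 and Chrnb4, the neighbouring genes for the ganglionic receptor, were marked in 10, 7 and 6 libraries. Chrna3 and Chrnb4 share 1 block (chr9:55021611-55028834), which reached Chrnb4 at its far end and not at its start. Of the subunits of the muscle receptor, Chrna1 and Chrne had no peak, Chrng had 1 in a single library, and Chrnb1 and Chrnd were counted through blocks that also covered neighbours. The block at Chrnd (chr1:87179325-87191180) lay over Prss56 in 11 libraries and reached Chrnd in 4, over a median of 0.149 kb. The block at Chrnb1 (chr11:69791400-69810240) lay on Fgf11 in 12 libraries and on Tmem102 in 12, and reached Chrnb1 in 6. Of the 5 muscarinic genes, Chrm3 and Chrm4 were marked in 10 libraries over medians of 3.84 and 3.95 kb, Chrm2, for the receptor that slows the heart, in 9, and Chrm1 and Chrm5 in none.

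Few genes of the inhibitory channels carried the mark regularly. Of 19 GABA-A genes only Gabra5, for the extrasynaptic alpha 5 subunit, was marked in 10 libraries. Its block (chr7:57504809-57513738) sat at a start inside the gene span and missed both outer ends in every library. Peaks covered 0, 3.88 and 4.90 kb of Gabra5 in B6 headfolds without vitamin C, 3.86, 1.26 and 8.23 kb in B6 headfolds with vitamin C, 6.45, 0 and 6.89 kb in 129 headfolds without vitamin C, and 7.88, 5.91 and 6.89 kb in 129 headfolds with vitamin C. Gabrd, for the delta subunit of tonic inhibition, was marked in 8 libraries, Gabrb2 in 5 and Gabra2 in 4. Of the 4 glycine receptor genes, Glra1 was marked in 4 libraries, Glra4 in 1 and Glra2 and Glra3 in none.

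Neighbouring genes differed in their state in some groups and not in others. Receptor genes of 1 class that lie within 500 kb of each other formed 9 groups with 25 genes. Of these 13 were marked at least once, beside 69.4% of all receptor genes and 20.2% of all genes. Gabrr1 and Gabrr2, Chrnb3 and Chrna6, and Htr3a and Htr3b had no peak. In the groups of Chrnd and of Chrna5 every gene was marked at least once. The other groups, all of GABA-A genes, held both marked and unmarked genes. On chromosome 11, Gabrb2 was marked in 5 libraries, while Gabra6 in the same group had no peak. On chromosome 7, Gabra5 was marked in 10 libraries and Gabrg3 in 1. On chromosome 5, Gabra4 and Gabrb1 start close together and shared a block (chr5:71656355-71660391) that was called in 1 library. Peaks over receptor genes merged into 74 regions, 58 of them found in 2 or more libraries, and 62 of the 68 marked genes had a single region.

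The shorter receptor genes were the more regularly marked. Of the 17 receptor genes under 10 kb, 8 were marked in at least 10 libraries, beside 6.49% of all genes of that length. Of the 46 genes between 10 and 100 kb it was 8, beside 5.08%, and of the 35 genes of at least 100 kb it was 5, beside 8.15%. The whole window was covered in at least 1 library for 8 genes, all of them under 20 kb, namely Grin2c, Adra1d, Adra2a, Adra2b, Adra2c, Adrb1, Drd4 and Drd5. The median covered length in marked libraries was 5.20 kb over the 21 genes marked in at least 10 libraries, with a range of 3.84 to 20.5 kb, and 3.69 kb over the genes marked in 1 to 9.

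**Figure D4:**
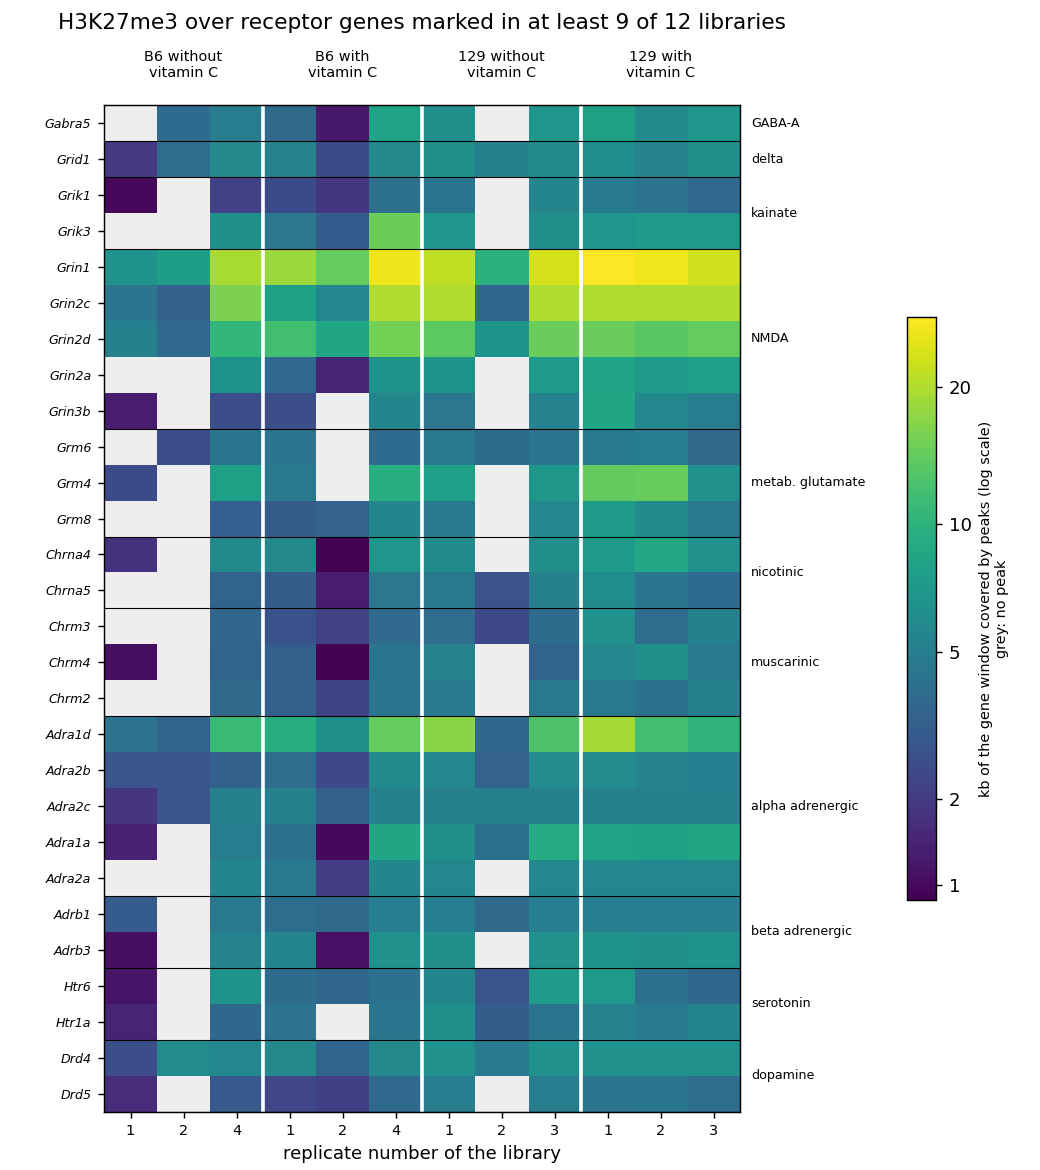
Length of the gene window covered by H3K27me3 peaks (colour, kb on a log scale; grey for no peak) for the 28 receptor genes marked in at least 9 libraries, by class and library. Grin1, Grin2c, Grin2d, Adra1d and Drd4 are filled in every column, and the columns with most grey are replicates 1 and 2 of B6 without vitamin C and replicate 2 of 129 without vitamin C.

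A question of the design was whether a lack of vitamin C alters the mark. Without vitamin C, 20, 10 and 46 receptor genes were marked in B6 headfolds (25.3 ± 18.6, SD, n = 3), against 35, 36 and 64 with vitamin C (45.0 ± 16.5, SD, n = 3). In 129 headfolds 50, 18 and 53 receptor genes were marked without vitamin C (40.3 ± 19.4, SD, n = 3), against 47, 32 and 44 with vitamin C (41.0 ± 7.94, SD, n = 3). The groups overlapped in both backgrounds. The mean of without minus with vitamin C over both was -10.2 genes. It was smaller in size than the spread within B6 groups and within 129 without vitamin C. That mean joins unlike differences. In B6 the group means lay slightly further apart than the SD of either group, and in 129 they lay closer than the SD of either group.

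The number of genes of any kind that a list marked moved with these counts, and its part in them was not tested. The number of peaks alone did not set their order: the longest list, with 4726 mostly short peaks, marked 36 receptor genes. The 3 libraries with the fewest marked genes of any kind, at 651, 1189 and 1449, were all from headfolds without vitamin C. Of the 26 receptor genes marked in 8 to 11 libraries, these lists missed 24, 16 and 14. The other lists without vitamin C, 129 replicates 1 and 3 and B6 replicate 4, missed 0 each. The 6 lists from headfolds with vitamin C missed between 0 and 6. The 26 genes were picked by their marked libraries in these same lists, so their misses are no separate evidence on diet. With the reduced lists of 748 peaks, 9, 10 and 14 receptor genes were marked in B6 headfolds without vitamin C, against 17, 7 and 15 in B6 headfolds with vitamin C. In 129 headfolds these lists marked 12, 8 and 12 without vitamin C, against 14, 17 and 11 with vitamin C. The mean of without minus with vitamin C over both backgrounds was then -2.67 genes. Leaving out 129 without vitamin C replicate 2 gave -4.58 for the full lists, leaving out B6 with vitamin C replicate 4 gave -5.42, leaving out B6 without vitamin C replicate 2 gave -6.33, and leaving out B6 without vitamin C replicate 4 gave -15.3.

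**Figure D5:**
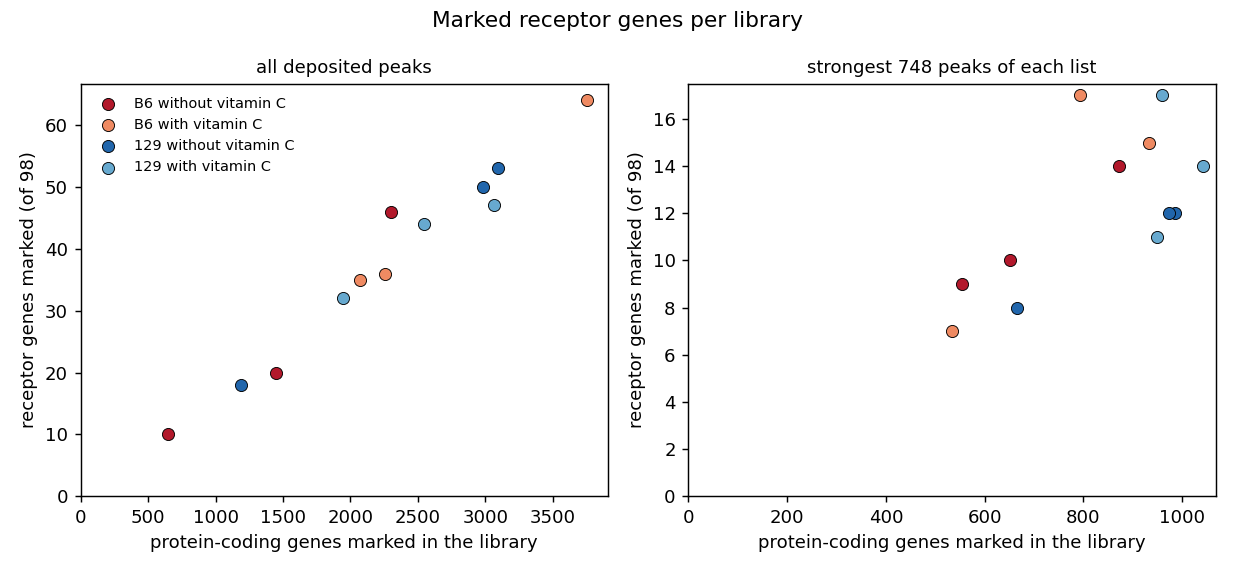
Receptor genes marked (y axis) against all protein-coding genes marked (x axis) in each of the 12 libraries, with all deposited peaks (left) and with the 748 strongest peaks of each list (right). With all peaks the libraries lie between 10 receptor genes of 651 marked genes and 64 of 3752, and with equal lists the libraries span 7 to 17 receptor genes and the groups overlap.

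No receptor gene passed the test for vitamin C. By exact permutation of the diet within each background (400 relabellings, two-sided, smallest possible p 0.005), 0 of 21883 genes had an adjusted p under 0.05 (0%). Unadjusted, 1 gene did (0.00457%), which was no receptor gene. Even at the smallest possible p, adjustment over 21883 genes lets no gene pass unless very many reach it together. The count of 0 after adjustment therefore does not show that no gene differed. The same holds for the tests of background, of the difference between backgrounds and of sex. Of the 68 marked receptor genes, 41 (60.3%) had fewer marked libraries without vitamin C than with it, beside 66.8% of all marked genes. More marked libraries without vitamin C were counted for 7 (10.3%), beside 9.33% of all marked genes and 1.89% of all genes. By class, fewer marked libraries without vitamin C were counted for 6 of 8 marked metabotropic glutamate, 6 of 7 nicotinic and 3 of 3 muscarinic genes, and none of these classes had a gene with more. The counts were 7 fewer and 2 more of 11 serotonin genes, 5 fewer and 1 more of 9 GABA-A and likewise of 9 adrenergic genes, 3 fewer and 1 more of 7 NMDA and likewise of 6 kainate and delta genes, 1 fewer and 0 more of 2 AMPA and of 2 glycine genes, and 1 fewer and 1 more of 4 dopamine genes.

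The lowest p among receptor genes was that of Chrnd, marked in 0 of 6 libraries without vitamin C against 4 of 6 with vitamin C (exact permutation p = 0.08, adjusted p = 1), through the block over Prss56. The 6 receptor genes Grik3, Grin2a, Grm8, Chrm2, Adra2a and Htr1d had 3 fewer marked libraries without vitamin C (exact permutation p = 0.2 for each). Together with Chrnd they make 7 of 98 (7.14%) with at least 3 fewer, beside 1.48% of all genes, most of which are marked nowhere. Grik3, Grin2a, Grm8, Chrm2 and Adra2a were each marked in 1 of 3 B6 and 2 of 3 129 libraries without vitamin C, against 3 of 3 in both backgrounds with vitamin C. The libraries without a peak were again B6 replicates 1 and 2 and 129 replicate 2. In the other direction Gabra2 was marked in 3 libraries without vitamin C against 1 with vitamin C (exact permutation p = 0.56), and Adra1b, Htr7, Drd2, Grik4, Grin2b and Htr4 in 1 library more.

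Within B6, 47 of 68 receptor genes (69.1%) had fewer marked libraries without than with vitamin C, beside 72.7% of the genes marked in B6, and 0 had more, beside 3.5%. Within 129, 17 of 55 (30.9%) had fewer without vitamin C, beside 29.2%, and 13 (23.6%) had more, beside 18.9%. A split of 0 of 3 without against 3 of 3 with vitamin C was found for 0 receptor genes in B6, beside 0.311% of all genes, and for 0 in 129, beside 0.00914%. The reverse split was found for 0 receptor genes in either background, beside 0% of all genes in B6 and 0.00457% in 129. With 3 libraries against 3 the exact test cannot go below 0.1, so no test was made within a background. The difference between the backgrounds in the effect of vitamin C was tested for every gene by the same permutation. Its relabelling stands for no effect of diet in either background, not for equal effects in both. The test gave 0 genes with an adjusted p under 0.05 (0%), 2 unadjusted (0.00914%) and 0 receptor genes. Its lowest p among receptor genes was 0.26 (exact permutation), for Adra1b and Drd2. These were marked in 1 of 3 B6 libraries without against 2 of 3 with vitamin C, and in 2 of 3 129 libraries without against 0 of 3 with vitamin C.

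The covered length gave a finer measure than marked or not. As a percent of the gene window, cover was lower without vitamin C in 56 of the 68 marked receptor genes and higher in 12, beside 84.7% lower among all marked genes. For Grin1, cover averaged 37.3 ± 23.7% in B6 headfolds without vitamin C against 65.1 ± 20.3% with vitamin C, and 60.8 ± 25.0% in 129 headfolds without against 86.1 ± 9.01% with vitamin C (SD, n = 3 each, exact permutation p = 0.055, adjusted p = 1). Grm8 was the only receptor gene with an unadjusted p under 0.05 in this measure (exact permutation p = 0.045, adjusted p = 1), beside 71 of all genes (0.324%). This is 1.47% of the marked receptor genes, beside 1.6% of all marked genes. In the difference between backgrounds 0 receptor genes were under it, beside 0.0137% of all genes. Its cover was 1.08 ± 1.87 kb in B6 headfolds without against 4.07 ± 1.31 kb with vitamin C, and 3.51 ± 3.08 kb in 129 headfolds without against 6.02 ± 1.46 kb with vitamin C (SD, n = 3 each).

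Between the backgrounds, B6 headfolds had 30 of the 68 marked receptor genes (44.1%) in fewer libraries than 129 headfolds, beside 49.9% of all marked genes, and 18 (26.5%) in more, beside 26.8%. By exact permutation of the background within each diet, 0 genes passed after adjustment (0%) and 15 before it (0.0685%), none of them a receptor gene. The lowest p was that of Chrnb1, marked in 1 of 6 B6 libraries against 5 of 6 of 129 (exact permutation p = 0.08, adjusted p = 1), through the block over Fgf11 and Tmem102. Gabrb2 and Grm5 were marked in 1 of 6 B6 libraries against 4 of 6 of 129, and Htr1d in 2 against 5. Of the 12 genes marked in a single library, 9 owed this to B6 with vitamin C replicate 4, the library with the most marked genes, and 3 to B6 with vitamin C replicate 2, the longest list.

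In covered percent, 6 receptor genes had an unadjusted p under 0.05 for background, beside 584 of all genes (2.67%), and each was lower in B6. As a share of marked genes the 6 are 8.82%, below the 13.2% over all marked genes. They were Adra1a, Adra2b, Adrb1, Chrna5, Chrm3 and Htr1a, all among the 21 genes marked in at least 10 libraries (exact permutation p between 0.015 and 0.045, adjusted p = 1 for each). Htr1a, for example, was covered over 26.8 ± 28.8% in B6 headfolds without vitamin C and 45.6 ± 39.5% in B6 headfolds with vitamin C, against 72.1 ± 24.5% in 129 headfolds without vitamin C and 81.4 ± 5.62% in 129 headfolds with vitamin C (SD, n = 3 each). Adra1a was covered over 2.10 ± 2.52 kb in B6 headfolds without vitamin C and 4.54 ± 3.79 kb in B6 headfolds with vitamin C, against 6.53 ± 2.52 kb in 129 headfolds without vitamin C and 8.19 ± 0.215 kb in 129 headfolds with vitamin C (SD, n = 3 each). For Chrm3, for the muscarinic receptor of smooth muscle and glands, cover was 1.21 ± 2.10 kb in B6 headfolds without vitamin C and 2.90 ± 0.802 kb in B6 headfolds with vitamin C, against 3.43 ± 0.875 kb in 129 headfolds without vitamin C and 5.23 ± 1.24 kb in 129 headfolds with vitamin C (SD, n = 3 each). The B6 and 129 libraries overlapped for all 3 genes. The 2 libraries of short peaks are of B6, and the labels number the libraries of 1 background after those of the other, so a difference between the backgrounds and one between preparations cannot be told apart.

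Of the receptor genes 7 are X-linked, and on the X chromosome females carry an inactive copy that is rich in this mark. Gabra3, Gabre and Glra2 had no peak. Htr2c was marked in 4 of 8 female and 2 of 4 male libraries, Gabrq in 2 female and 0 male libraries, and Gria3 and Glra4 in 1 female and 0 male libraries each. The 4 marked genes of 7 (57.1%) stand beside 23% of the 966 X-linked genes. By exact permutation of the labelled sex within background (225 relabellings), 0 genes passed after adjustment (0%) and 1 before it (0.00457%), and the lowest p of a receptor gene was 0.467 (exact permutation).

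Other genes of synaptic transmission were marked in part as well, and their counts stand beside 20.2% of all genes marked at least once and 5.93% marked in at least 10 libraries. Among 23 further transmitter receptors, 14 were marked at least once and 3 in at least 10 libraries, namely Oprd1, for the delta opioid receptor, in 12, and Gabbr2, for a GABA-B subunit, and Adora2a, for an adenosine receptor, in 10 each. Among 19 genes of transmitter synthesis and vesicle loading, 11 were marked at least once and 6 in at least 10 libraries. Gad1 and Slc32a1, for GABA synthesis and loading, Chat and Slc18a3, for acetylcholine, and Slc17a7, for glutamate loading, were marked in all 12 and Gad2 in 10. Of the genes for enzymes of catecholamine synthesis, Th, Ddc and Dbh had no peak, while Pnmt was marked in 8 libraries. Among 20 genes of reuptake and breakdown, 12 were marked at least once and 4 in at least 10 libraries, with the glycine transporter gene Slc6a5 in 12 and the monoamine transporter genes Slc6a2, Slc6a3 and Slc6a4 in 10. Among 45 scaffold and auxiliary genes, 31 were marked at least once and 12 in at least 10 libraries, with Cbln1, which bridges to delta receptors, Nptx1 and Grid2ip in 12. Fewer marked libraries without vitamin C than with it were counted for 12 of 14, 5 of 11, 9 of 12 and 23 of 31 marked genes of these lists, beside 66.8% of all marked genes, and more for 0, 0, 2 and 2, beside 9.33%. None passed the test after adjustment, and 0 did so by unadjusted p under 0.05. The largest difference was that of Pnmt, for the enzyme that makes adrenaline, with 2 of 6 libraries without against 6 of 6 with vitamin C (exact permutation p = 0.05, adjusted p = 1).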

How the data were processed

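The 98 receptor genes and the lists of other genes were chosen with earlier results of these data known. The 12 H3K27me3 libraries analysed, 3 per background and diet, were grouped by the labels' titles. The 4 IgG samples and 2 further B6 samples were not analysed here, and B6 replicates keep the numbers 1, 2 and 4. Tools named per the submitters' processing notes are cutadapt, Bowtie2, Picard and SEACR, with the build mm10. Versions, settings and any use of the IgG samples in peak calling: not given in the sources used here. A list holds the peaks of 1 library. The total and maximum signal of each peak were deposited by the authors and were used here only to order or filter the peaks of a single list. They cannot be compared between libraries, and depth is unknown, so a missing peak says only that none was called.

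Gene spans came from RefSeq for GRCm38.p6, the assembly of mm10, and mitochondrial genes were left out. Coordinates are 1-based. Strand and promoter sequence came from the RefSeq promoter table, which held 70 of the 98 genes (28 without), and where it lists several starts the sequence at the most upstream was used. The number of marked libraries was compared for every gene by exact permutation, two-sided, of diet within background, of background within diet, of the difference of differences and of sex within background, with Benjamini-Hochberg adjustment over all genes and a threshold of 0.05. Embryos are the replicates. No p was computed for the receptor genes as a list. The overlap was checked by direct comparison for randomly drawn genes on a deposited peak list, and the permutation was tested on simulated data.

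The text names all receptor genes marked in at least 10 libraries, the extremes of each class, those with the largest differences and the X-linked ones, up to 10 per direction, and others as further members of a class; some genes are counted in the totals but not reported by name here. Alternatives were other gene windows, peak filters, equal lists, percent of the window covered, embryos of a pregnancy averaged, and libraries left out. Python 3.11.15, NumPy 2.4.6, pandas 2.3.3 and Matplotlib 3.10.9 were used.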

Additional observations from a re-analysis of the deposited data

How the results depend on the processing

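The number of receptor genes marked in at least 10 of 12 libraries was 21. It was 9 when peaks under the median maximum signal of their list were dropped and 8 in equal lists, beside 2.15% of all genes in equal lists. Within 1 kb of the gene start it was 14 of the 70 genes with a listed start. Under the other windows and filters it was between 17 and 22. With 1 library left out it was between 21 and 28, beside 5.93% to 7.32% of all genes. Without both libraries of short peaks it was 30, beside 7.62%. The required number of libraries was lowered by 1 for each library left out, so these counts could not fall below 21. The number marked in no library was 30, and it was 49 under the signal filter and 75 in equal lists. With 1 library left out, which cannot lower it, it was between 30 and 39, 39 being reached without B6 with vitamin C replicate 4. The mean number of marked receptor genes without minus with vitamin C, -10.2, was -5.83 under the signal filter and -2.67 in equal lists, and ranged from -15.3 to -4.58 with 1 library left out. Averaging embryos of a pregnancy leaves each group mean as it is, so its value, -10.2, says nothing about the shared pregnancy of B6 with vitamin C. B6 minus 129 was -5.5, -0.333 in equal lists and between -11.1 and -1.67 with 1 library left out, the extremes being reached by leaving out replicate 2 of 129 without vitamin C and replicate 2 of B6 without vitamin C. The cause of these shifts was not tested. Calls after adjustment were 0 for diet, background and their difference under each other window and filter, in equal lists, in percent covered and with libraries left out, and so were those of X-linked genes for sex, which was not tested in percent covered. These counts of 0 could hardly have moved, because a single gene cannot pass adjustment over all genes even at the smallest possible p. Calls were not recomputed with embryos of a pregnancy averaged. Unadjusted, the genes under 0.05 numbered 1 for vitamin C (0 to 14 under alternatives and 71 in percent covered), 15 for background (13 to 64, and 584 in percent covered) and 2 for the difference of differences (0 to 18).

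Among the named genes, of 1286 differences under the alternatives 714 kept their sign, 10 reversed, 44 fell to 0, 113 left 0 and 405 were 0 in both, and 5 came under unadjusted p 0.05. In equal lists 13 kept their sign and 20 fell to 0. The 5 were Adra1a for B6 minus 129 in equal lists, Chrnb1 for B6 minus 129 without 129 without vitamin C replicate 2 or without B6 with vitamin C replicate 4, and Chrnd for diet without 129 with vitamin C replicate 3 or without B6 with vitamin C replicate 2, each at -83.3 percentage points of libraries (exact permutation p = 0.02). Under the signal filter, B6 minus 129 turned to 50 points for Adra2a and Grm8 and to 16.7 for Grm5 and Htr6, and without minus with vitamin C turned to 16.7 for Chrna5 and Grin2a. In equal lists B6 minus 129 turned to 16.7 for Adra2a and Grin2a, and without minus with vitamin C to 16.7 for Gabra5 and Grin2a.

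No paired analysis was possible because the replicate numbers were given in accession order and pair no embryos. Unknown depth limits every count.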
